A study of Arabidopsis thaliana with 16 samples.

Results

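Chlorophyll synthesis was followed here through 7 genes, each measured by 1 probe set of the ATH1 array, out of 22746 probe sets that are not controls. The genes were chosen by name for their place in the pathway. The annotation used here names PORB (253871_at, AT4G27440), CHLM (254105_at, AT4G25080) and CHLI2 (248920_at, AT5G45930). The other 4 are identified by the probe set that the selection itself pairs with the gene, and not by that annotation: HEMA1 (256020_at, AT1G58290), CHLH, also called GUN5 (250243_at, AT5G13630), PORA (248197_at, AT5G54190) and PORC (264839_at, AT1G03630). All 7 were among the 14878 probe sets tested, which lay above the 40th percentile of their array on at least 2 arrays.

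Transcripts of whole Arabidopsis thaliana seedlings were measured in total RNA on 16 arrays, 1 per sample. The seedlings were lhy-21 cca1-11 double mutants in the Wassilewskija (WS) background, written lhy cca1 here, or WS wild type. LHY and CCA1 are closely related transcription factors of the circadian clock whose transcripts peak around dawn. Both genotypes had 4 days of cold at 4 °C in darkness and were then grown to 9 days at 22 °C on medium with 3% sucrose, in 18 h of light and 6 h of darkness, with light of 60 to 65 µE. Sampling took place at 4 times, 15 min ahead of dawn and then 15, 30 and 60 min past it, with 2 arrays for each genotype and time. A sample was all the seedlings of a plate, and the labels do not state whether the 2 replicates were grown separately. The p-values thus cover the spread among these samples only, which may be technical. No seedlings kept dark past dawn were analysed here, so light and time of day cannot be told apart after dawn. LHY and CCA1 have no named probe set in the annotation used here, and the genotype labels were therefore not checked against their targets.

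Chlorophyll is made in the plastid from glutamate. Glutamyl-tRNA reductase, encoded by HEMA genes, makes the precursor of 5-aminolevulinic acid, the step at which the flow into all tetrapyrroles is controlled. Several 5-aminolevulinic acid molecules are joined into protoporphyrin IX, into which magnesium chelatase inserts magnesium, the branch point towards chlorophyll and away from heme. In flowering plants the reduction of protochlorophyllide, catalysed by the POR enzymes, needs light, which halts the pathway in the dark and restarts it at dawn.

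Signals below are the deposited array intensities on a linear scale, and differences are on the log2 scale of those signals with their standard error (SE) and 95% confidence interval from limma. The threshold was a Benjamini-Hochberg adjusted p under 0.05 over all 14878 probe sets. Signals of different genes come from different probes and are not set against each other. In whole seedlings, fewer cells of a type and less RNA per cell cannot be told apart. Green tissue markers were present throughout. LHCB4.1, a light-harvesting protein of photosystem II, ran from 4370 to 6623 in lhy cca1 and from 3583 to 4732 in WS. RCA, the activator of Rubisco, ran from 5613 to 7825 in lhy cca1 and from 6028 to 7186 in WS. Of the 7 green tissue markers listed, these 2 had a named probe set. Of the 6 root markers listed, 2 had one, PYK10 and EXPA7. PYK10 ran from 3352 to 4494 in lhy cca1 and from 3242 to 4452 in WS. EXPA7, a root hair expansin, was above the 40th percentile on 1 of 8 arrays in each genotype. None of the 4 seed markers had a named probe set.

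In the mutant, 3 genes of the pathway stood higher when the 4 times were averaged. They were HEMA1 at the entry, CHLM in the magnesium branch and PORB at the light-requiring step. Their differences were modest, 0.33 to 0.45 on the log2 scale or 1.26-fold to 1.37-fold. Of all tested probe sets 10.9% passed as higher in that comparison, and 18.2% passed in either direction. The other 4 genes, PORC of the same light-requiring step among them, did not pass the test in that comparison. Each of the 3 calls was lost under at least 1 of the alternatives given below. In WS, CHLH rose over the first hour after dawn, and none of the other 6 genes changed past the threshold with time in either genotype. The change of CHLH in lhy cca1 did not pass, and its time course was not shown to differ between the genotypes. At 60 min in WS 3.54% of all tested probe sets passed by rising.

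**Figure D1:**
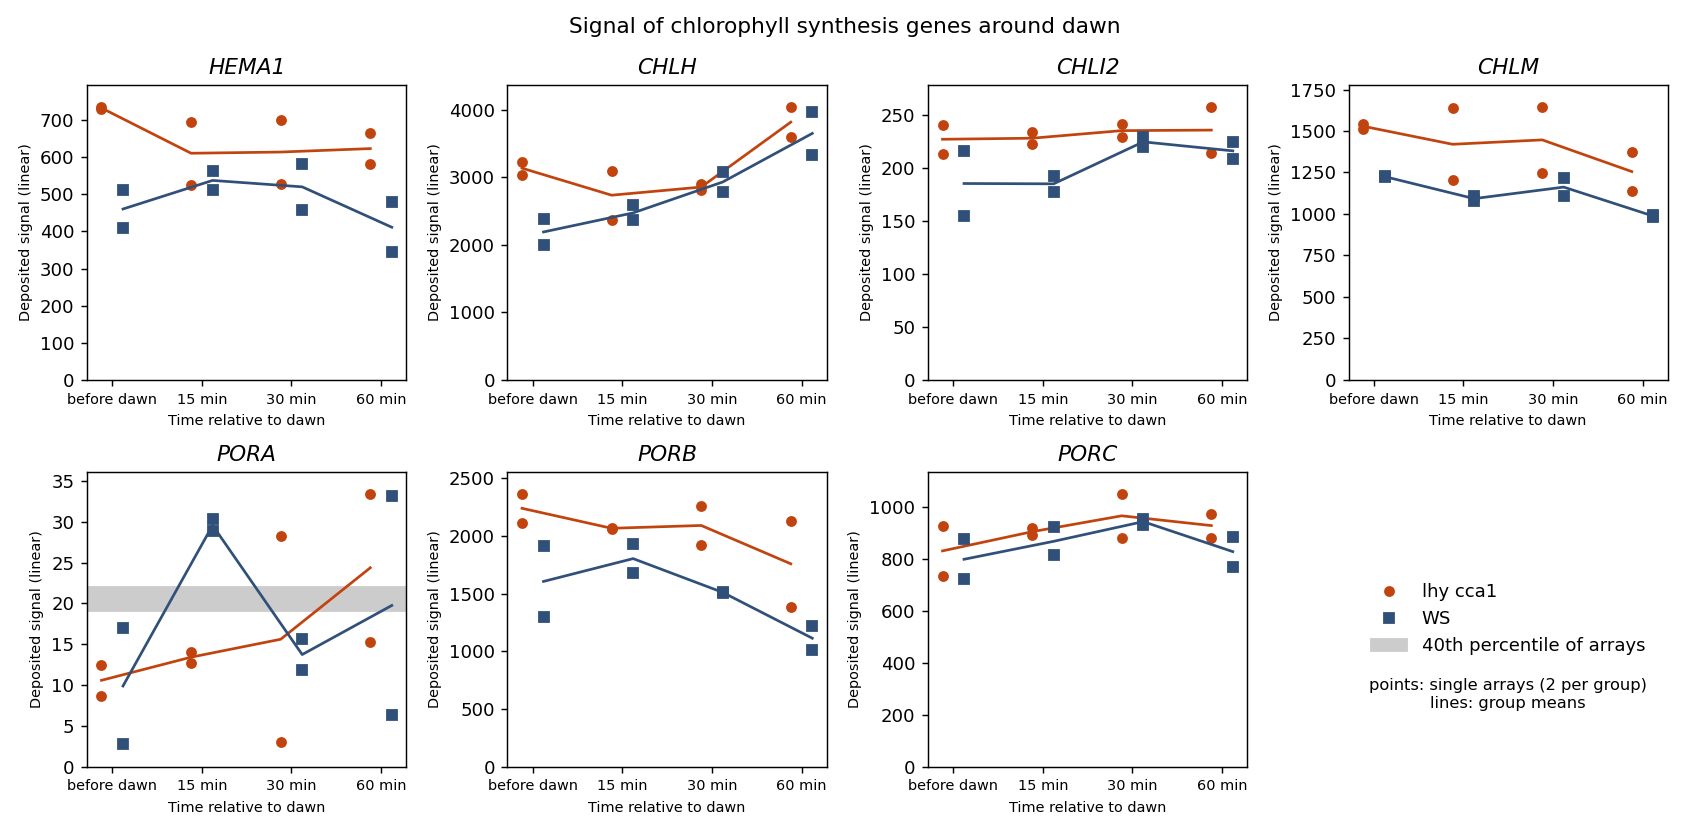
Deposited signal (linear scale, each axis from 0) of the 7 genes at 15 min before dawn and 15, 30 and 60 min after dawn. Points are single arrays, circles for lhy cca1 and squares for WS, and lines join the means of 2 arrays. The lhy cca1 points of CHLM and PORB lie above the WS points at all 4 times, CHLH climbs in WS, and PORA straddles the grey band, which spans the 40th percentiles of the arrays (19.1 to 22.0).

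HEMA1 encodes the glutamyl-tRNA reductase that serves most chlorophyll synthesis in green tissue. In lhy cca1 its signal was 735.6 and 729.1 before dawn, 525.5 and 695.4 at 15 min, 527.4 and 700.0 at 30 min, then 580.8 and 665.2 at 60 min. In WS it was 410.2 and 510.3 before dawn, 511.5 and 563.0 at 15 min, 457.7 and 582.2 at 30 min, then 343.2 and 479.1 at 60 min. Both lhy cca1 arrays lay above both WS arrays before dawn and at 60 min, while the ranges overlapped at 15 and 30 min. The mean over the 4 times was higher in lhy cca1 by 0.43 ± 0.095 (SE; interval 0.22 to 0.63; limma adjusted p = 0.00513). The fitted differences at single times were 0.68 before dawn (adjusted p = 0.0927), 0.17 at 15 min, 0.24 at 30 min and 0.62 at 60 min (adjusted p = 0.089), none of which passed the threshold. The difference at 60 min hung on single arrays: it was 0.86 without replicate 2 of WS at 60 min (adjusted p = 0.0368) and 0.38 without replicate 1 (adjusted p = 0.381). The difference before dawn was 0.52 without replicate 1 of WS before dawn (adjusted p = 0.431) and 0.84 without replicate 2 (adjusted p = 0.117). It stayed at 0.68 without either WS array of 60 min, with an adjusted p of 0.046 or 0.0471.

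Ordered by mean signal, HEMA1 was brightest in lhy cca1 before dawn, at 732.4 ± 4.54 (SD, n = 2), and that group was clear of the next. The other 3 lhy cca1 groups followed at 610.4 to 623 and then the 4 WS groups, from 537.3 at 15 min down to 411.1 at 60 min. No neighbours further down that order had ranges that kept apart. Over time, the fitted change of HEMA1 lay between -0.28 and -0.24 in lhy cca1 and between -0.17 and 0.23 in WS, and none passed the test.

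CHLH is the large, porphyrin-binding subunit of magnesium chelatase. Its signal in lhy cca1 was 3038 and 3234 before dawn, 2370 and 3101 at 15 min, 2904 and 2808 at 30 min, then 4045 and 3591 at 60 min. In WS it was 2002 and 2380 before dawn, 2362 and 2585 at 15 min, 3078 and 2784 at 30 min, then 3331 and 3971 at 60 min. The group means of WS followed the order of the times, and both WS arrays at 60 min lay above both at each earlier time. In WS at 60 min CHLH had risen by 0.74 ± 0.141 against before dawn (SE; interval 0.44 to 1.03; limma adjusted p = 0.00252), a 1.67-fold rise. The fitted change in WS was 0.18 at 15 min (adjusted p = 0.876) and 0.42 at 30 min (adjusted p = 0.175), and the F test over the 3 times after dawn gave an adjusted p of 0.0116.

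In lhy cca1 the same comparison at 60 min gave 0.28 for CHLH (interval -0.02 to 0.58; adjusted p = 0.275), and the F test an adjusted p of 0.141. The lhy cca1 arrays before dawn both lay above both WS arrays of that time, with a fitted difference of 0.52 (interval 0.22 to 0.82; adjusted p = 0.0795), and at 60 min the arrays of the 2 genotypes overlapped, with a difference of 0.07. The test of the difference itself, the change in lhy cca1 minus the change in WS, gave -0.39 at 15 min, -0.56 ± 0.199 at 30 min (limma adjusted p = 0.997) and -0.45 at 60 min (adjusted p = 0.682). The time course of CHLH is therefore not shown to differ between the genotypes. The mean over the 4 times differed by 0.17 (interval 0.02 to 0.32; adjusted p = 0.104), by 0.22 without replicate 1 of lhy cca1 at 15 min (adjusted p = 0.0386) and by 0.12 without replicate 2 (adjusted p = 0.256). By mean signal the 60 min groups of lhy cca1 (3818 ± 321) and WS (3651 ± 453) came first with overlapping ranges, clear of all others, and WS before dawn came last, at 2191 ± 268 (SD, n = 2 each).

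CHLI2 is the minor copy of the ATPase subunit of magnesium chelatase, closely related to CHLI1, and hybridisation between the copies was not tested. Its lhy cca1 signals were 240.8 and 213.3 before dawn, 233.9 and 222.2 at 15 min, 228.8 and 241.6 at 30 min, then 257.7 and 213.7 at 60 min. Its WS signals were 215.6 and 155.0 before dawn, 177.7 and 192.3 at 15 min, 229.6 and 219.6 at 30 min, then 224.1 and 208.1 at 60 min. The genotypes kept apart at 15 min alone. The mean difference over 4 times was 0.20 (interval 0.04 to 0.36; limma adjusted p = 0.086), 0.26 without replicate 1 of WS before dawn (adjusted p = 0.0208) and 0.14 without replicate 2 (adjusted p = 0.204). In lhy cca1 the 4 group means stayed within 227 to 235.7, and no neighbours in the order of the 8 groups were clear of each other.

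CHLM is the methyltransferase that acts on magnesium protoporphyrin IX directly after the chelatase. In lhy cca1 it had 1515 and 1543 before dawn, 1203 and 1637 at 15 min, 1247 and 1646 at 30 min, then 1371 and 1140 at 60 min. In WS it had 1220 and 1231 before dawn, 1079 and 1106 at 15 min, 1110 and 1214 at 30 min, then 979.4 and 994.9 at 60 min. At each of the 4 times both lhy cca1 arrays lay above both WS arrays, while the lhy cca1 replicates differed by up to 1.36-fold. The mean over the 4 times was higher in lhy cca1 by 0.33 ± 0.0762 (SE; interval 0.17 to 0.49; limma adjusted p = 0.0062). At the single times the difference was 0.32, 0.36, 0.30 and 0.34 from before dawn to 60 min, none past the threshold. Leaving out 1 array moved it to between 0.14 and 0.58 at 15 min, 0.10 and 0.50 at 30 min, then 0.21 and 0.47 at 60 min, both ends being fits without an lhy cca1 array of that time. In the order of its means the 4 lhy cca1 groups came before the 4 WS groups. The lowest of the first, lhy cca1 at 60 min (1256), was not clear of the highest of the second, WS before dawn (1226), and the WS groups were clear of each other.

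The 3 POR genes encode protochlorophyllide oxidoreductases. PORA is known for its abundance in dark-grown seedlings and its loss in light, PORB for expression in both, and PORC for expression in light-grown leaves. PORB in lhy cca1 had 2369 and 2113 before dawn, 2064 and 2071 at 15 min, 2260 and 1924 at 30 min, then 2135 and 1384 at 60 min. In WS it had 1295 and 1918 before dawn, 1929 and 1680 at 15 min, 1509 and 1514 at 30 min, then 1012 and 1216 at 60 min. As for CHLM, the lhy cca1 pair lay above the WS pair at every one of the 4 times, and the lowest lhy cca1 arrays overlapped the highest WS arrays of other times.

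The mean of PORB over the 4 times was higher in lhy cca1 by 0.45 ± 0.096 (SE; interval 0.25 to 0.65; limma adjusted p = 0.00371). At single times the difference was 0.51 before dawn, 0.20 at 15 min, 0.46 at 30 min and 0.63 at 60 min, the last with an adjusted p of 0.0835. Without replicate 2 of lhy cca1 at 60 min, the array at 1384, that difference was 0.94 (adjusted p = 0.034), and without replicate 1 it was 0.32 (adjusted p = 0.429). PORB had its lowest group mean in each genotype at 60 min, 1760 ± 531 in lhy cca1 and 1114 ± 145 in WS (SD, n = 2 each). The change at 60 min against before dawn was -0.38 in lhy cca1 (interval -0.79 to 0.03; adjusted p = 0.282) and -0.51 in WS (interval -0.91 to -0.10; adjusted p = 0.123), neither past the threshold. Without replicate 1 of WS before dawn, at 1295 the lower of its pair, the change in WS was -0.79 with an adjusted p of 0.0382, and without replicate 2 it was -0.22 with an adjusted p of 0.627.

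PORC had signals of 736.6 to 1053 in lhy cca1 (median 905.8) and of 722.6 to 956.6 in WS (median 881.6) over 8 arrays each. The genotypes overlapped at all 4 times, no neighbours in its order of groups kept apart, and the mean difference was 0.08 (interval -0.07 to 0.23; limma adjusted p = 0.495). The interval leaves out a difference of the size measured for PORB. Its changes since before dawn were 0.13, 0.22 and 0.17 in lhy cca1 and 0.12, 0.25 and 0.06 in WS at 15, 30 and 60 min, none past the threshold.

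PORA was near the lower end of what the arrays measured. It was above the 40th percentile of its array on 2 of 8 lhy cca1 arrays and 3 of 8 WS arrays. Its lhy cca1 signals were 12.45 and 8.714 before dawn, 12.74 and 14.10 at 15 min, 28.22 and 3.013 at 30 min, then 33.48 and 15.28 at 60 min. Its WS signals were 2.767 and 17.00 before dawn, 30.33 and 28.83 at 15 min, 11.83 and 15.65 at 30 min, then 33.15 and 6.371 at 60 min. Replicates differed by up to 9.36-fold, in lhy cca1 at 30 min, and the standard deviation within groups, 1.24 on the log2 scale, was above that of 99.8% of the tested probe sets.

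A group below the 40th percentile on both arrays is only bounded. The brighter mean, taken on the log2 scale and converted back, was therefore divided by that percentile, or by the dim signal where higher. Such a bound concerns the measured group means and leaves out the spread between arrays. On that basis the PORA mean in lhy cca1 at 15 min was at least 1.37-fold below that in WS at 15 min. The fitted difference was -1.14 with an interval of -3.12 to 0.84 (limma adjusted p = 0.634), so a lower signal is not shown. The PORA mean in WS at 15 min was at least 1.45-fold above that in WS before dawn. The fitted change was 2.11 with an interval of 0.13 to 4.09 (adjusted p = 0.721). The mean in lhy cca1 at 60 min was at least 1.06-fold above that in lhy cca1 before dawn. The fitted change was 1.12 with an interval of -0.86 to 3.1 (adjusted p = 0.569). In the last of these, 1 of the 2 arrays at 60 min (15.28) was itself below the percentile. A further 3 comparisons gave bounds under 1 and therefore no fold, and none passed the test. The fitted genotype difference over the 4 times was -0.12 with an interval of -1.11 to 0.87, so a difference as large as that of PORB in either direction was not detectable.

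**Figure D2:**
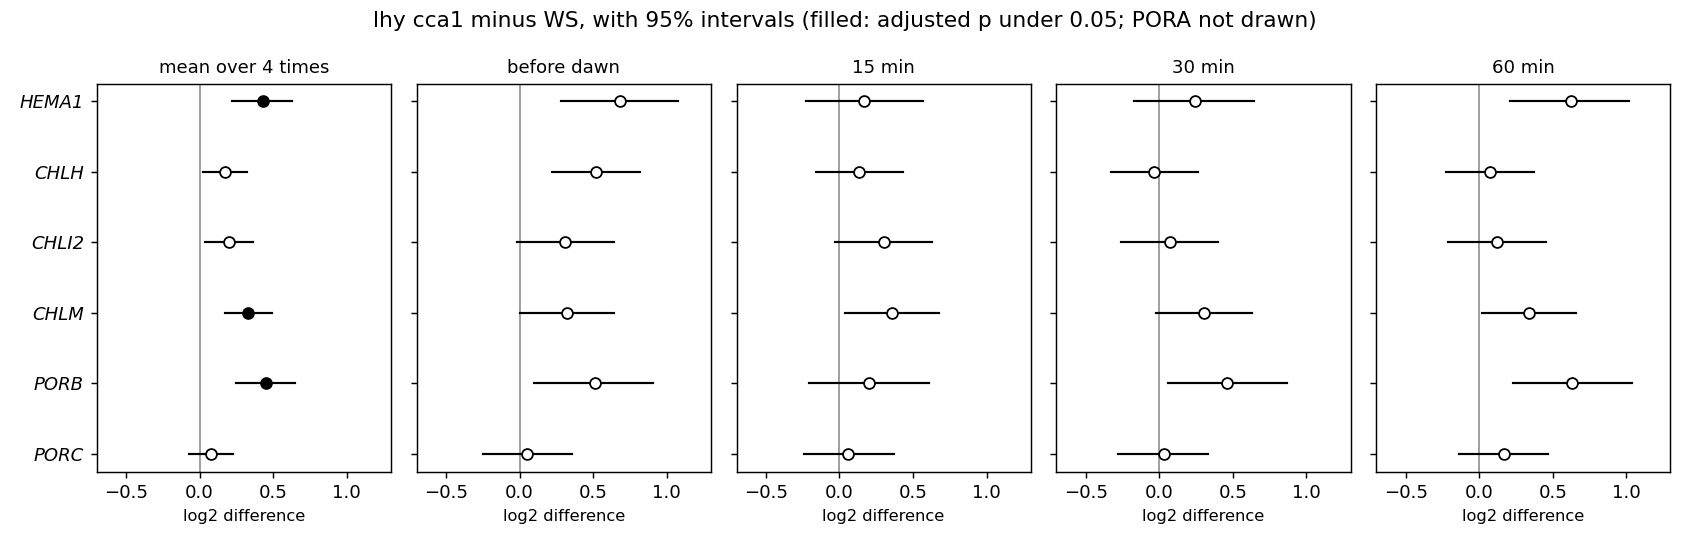
Difference between lhy cca1 and WS (log2, lhy cca1 minus WS) for 6 genes, as the mean over the 4 times and at each time. Bars are 95% intervals of the fit and filled circles passed an adjusted p of 0.05. HEMA1, CHLM and PORB are filled in the first panel and no gene is filled at a single time. PORA, with an interval of -1.11 to 0.87 in the mean, is not drawn.

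In the mean over the 4 times, 3 of the 7 genes were higher in lhy cca1, 0 were lower and 4 did not pass. Of all tested probe sets 18.2% passed in that comparison, and 10.9% passed and were higher in lhy cca1. The median difference was 0.20 over the 7 genes and 0.02 over all tested probe sets. The split over all probe sets depended on scaling: 1616 were higher and 1093 lower as deposited, and 1021 higher and 2212 lower once arrays were centred on their medians. With that centring HEMA1, CHLM and PORB had differences of 0.34, 0.24 and 0.36 and all 3 still passed (largest adjusted p = 0.0341).

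At single times 0 of the 7 genes passed in limma, where 1.61% of tested probe sets passed before dawn, 1.73% at 15 min, 1.07% at 30 min and 3.39% at 60 min. Both lhy cca1 arrays lay above both WS arrays at all 4 times for 2 of the 7 genes, CHLM and PORB, and for 4.72% of tested probe sets. No further gene of the 7 did so at 3 times, and 12.6% of tested probe sets did so at 3 or 4. The genotype difference was also taken within each replicate number. It was 0.46 in replicate 1 and 0.39 in replicate 2 for HEMA1, 0.28 and 0.38 for CHLM, and 0.66 and 0.24 for PORB. HEMA1 was higher in lhy cca1 at 4 of 4 times within both replicate numbers. For CHLM and PORB that follows from their pairs keeping apart at all 4 times. CHLH gave 0.2 and 0.14, CHLI2 0.19 and 0.21, PORC 0.13 and 0.02, and PORA 0.55 and -0.78. The split reuses the same arrays, and the labels do not tie replicate numbers across groups, so it is no separate support.

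Some control signals of the arrays differed between the genotypes. The 25S ribosomal RNA control, on the log2 scale, was 5.97 to 9.15 in lhy cca1 (mean 7.76) and 5.85 to 7.35 in WS (mean 6.56). Its 4 highest values, 8.01 to 9.15, were the replicate 2 arrays of lhy cca1, next to a replicate 1 array of lhy cca1 at 7.98. The means of the replicate 1 arrays were 6.79 in lhy cca1 and 6.8 in WS, so the difference lay in the replicate 2 arrays. The log2 ratio of the 3′ to the 5′ probe sets of GAPDH was 0.39 to 0.81 in lhy cca1 (median 0.70) and 0.21 to 0.59 in WS (median 0.46). Whether this ratio follows RNA length or GAPDH itself was not tested. The same ratio was 3.93 to 4.57 in lhy cca1 and 4.07 to 4.91 in WS for actin, and 1.43 to 1.77 in lhy cca1 and 1.24 to 1.74 in WS for ubiquitin. LHCB4.1, a marker of green tissue, was also higher in lhy cca1, by 0.32 ± 0.0614 (limma adjusted p = 0.00186), whereas RCA differed by -0.05 (adjusted p = 0.653).

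**Figure D3:**
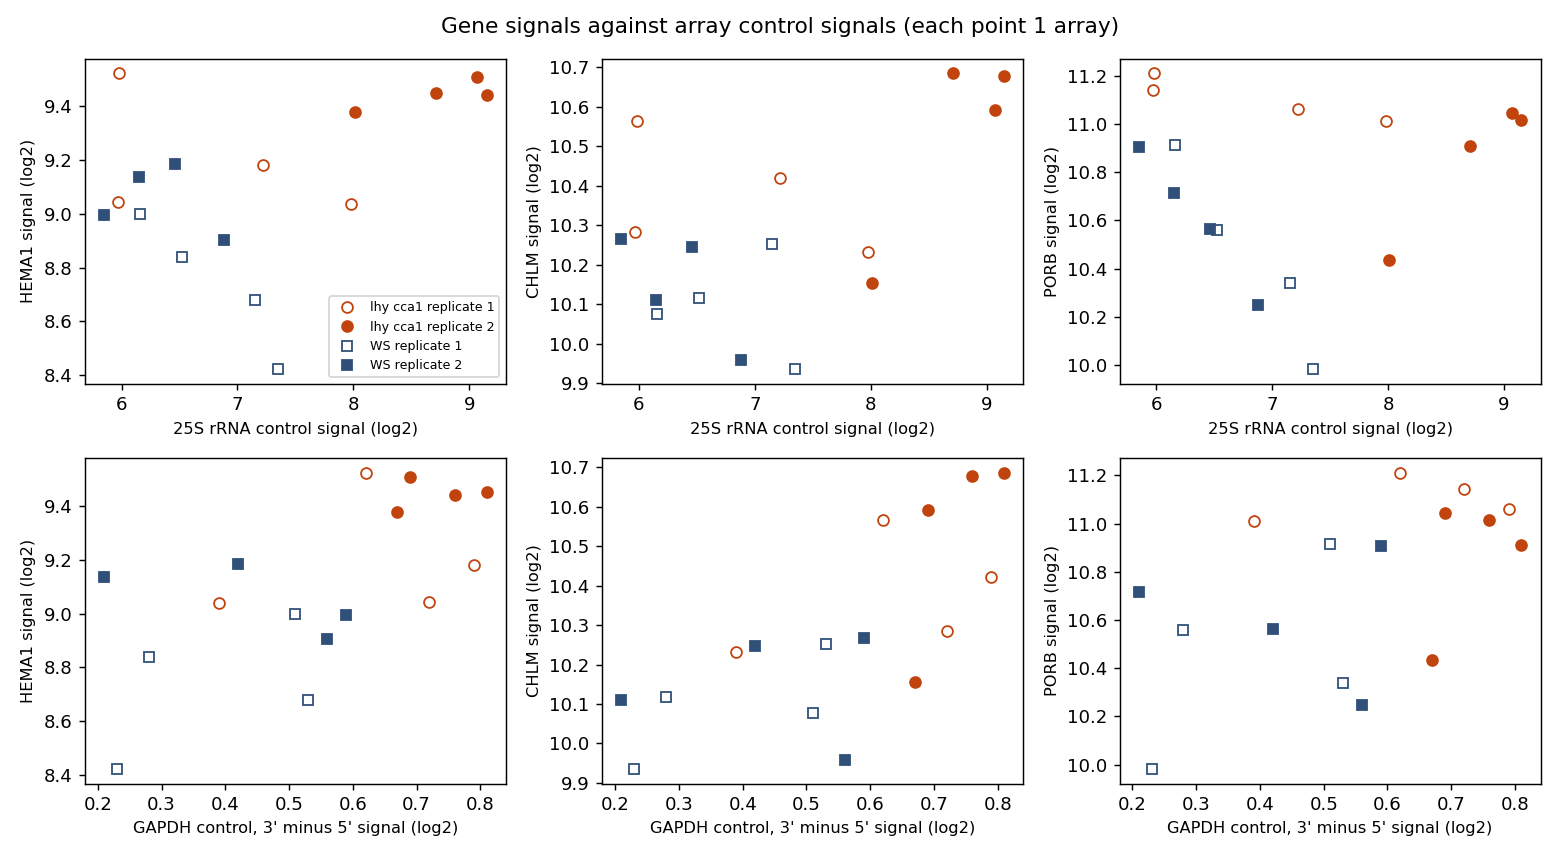
Signals of HEMA1, CHLM and PORB (log2) on each of the 16 arrays against the 25S ribosomal RNA control signal (upper row, log2) and the GAPDH 3′ minus 5′ control signal (lower row, log2). Circles are lhy cca1 and squares WS, filled for replicate 2. The filled circles, the lhy cca1 replicate 2 arrays, lie furthest right in the upper row at 8.01 to 9.15, next to an open circle at 7.98, and circles lie mostly to the right of squares in the lower row.

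The 3 genotype differences were recomputed with these controls taken into account. With the 25S signal as a covariate PORB gave 0.59 and passed (limma adjusted p = 0.00259), HEMA1 gave 0.37 (adjusted p = 0.0703) and CHLM 0.25 (adjusted p = 0.109). Without the 4 replicate 2 arrays of lhy cca1, PORB gave 0.58, HEMA1 0.30 and CHLM 0.26. The calls of HEMA1 and CHLM were lost in that fit, which left a single array in each lhy cca1 group and had fewer degrees of freedom. With the GAPDH ratio as a covariate, a setting chosen after seeing the data, none passed: PORB gave 0.30 ± 0.146 (limma adjusted p = 0.28), HEMA1 0.19 ± 0.132 (adjusted p = 0.482) and CHLM 0.16 ± 0.11 (adjusted p = 0.468). The ratio differs with genotype, so this fit cannot tell the 2 apart. The part of RNA quality and of green tissue in the 3 differences was not tested beyond these values.

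**Figure D4:**
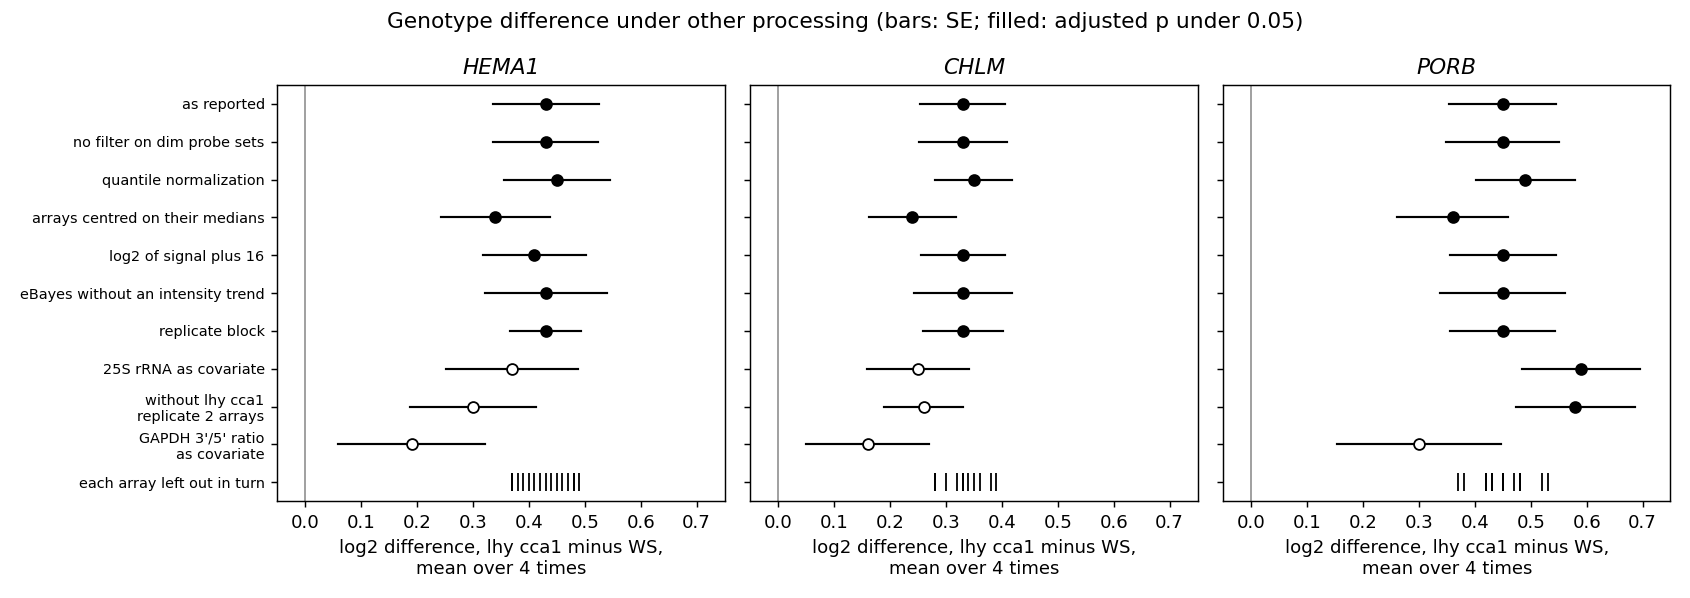
Genotype difference of HEMA1, CHLM and PORB (log2, lhy cca1 minus WS, mean over 4 times) as reported and under other processing. Bars are the SE, filled circles passed an adjusted p of 0.05, and ticks in the lowest row are fits that leave out 1 array each. All values lie above 0, from 0.16 to 0.59, and the open circles are the fits in which the call was lost.

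Against before dawn, 1 of the 7 genes passed, in WS. In lhy cca1 0 of the 7 passed at 15, 30 or 60 min against before dawn, where 0.0807%, 1.74% and 9.51% of all tested probe sets passed, or in the F test over the 3 times, where 7% did. In WS 0 of the 7 passed at 15 min (0.128% of all tested) and 0 at 30 min (2.14%). At 60 min in WS CHLH alone of the 7 passed, a rise, where 8.92% of all tested probe sets passed and 3.54% passed by rising. The F test in WS passed for CHLH and for 6.92% of all. The share that rose at 60 min depends on scaling too, with 526 risen and 801 fallen in WS as deposited. With arrays centred on their medians 668 had risen and 593 fallen. The total that passed changed less, 1327 as deposited and 1261 with that centring. The rise of CHLH in WS passed under each alternative run, at 0.61 to 0.86 with adjusted p of 0.00118 to 0.0493, the highest p without replicate 1 of WS before dawn.

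**Figure D5:**
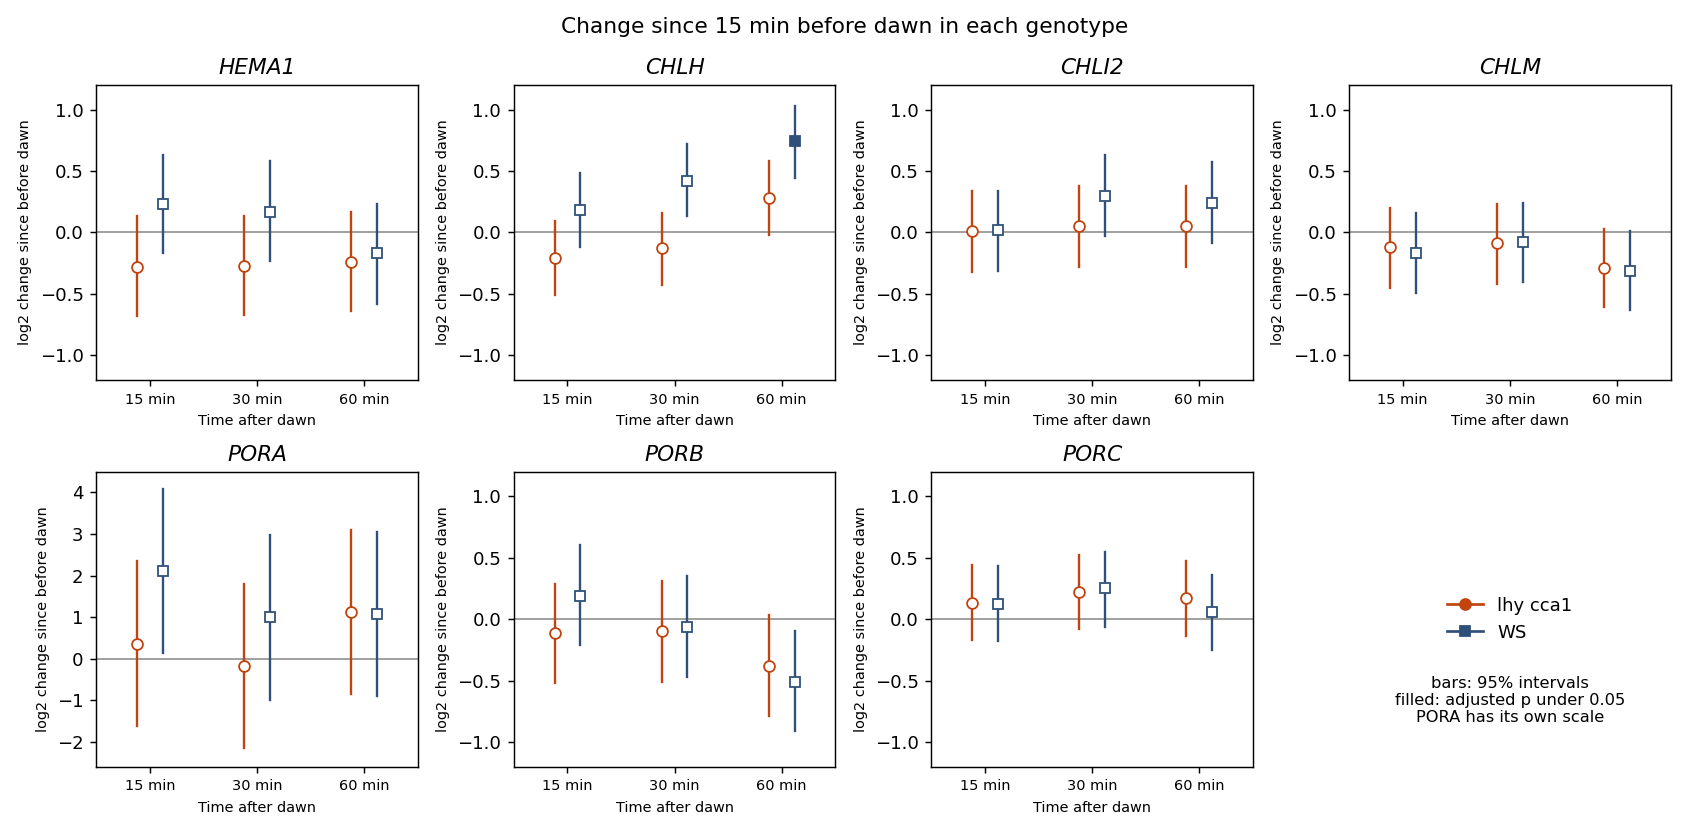
Change since 15 min before dawn (log2) at 15, 30 and 60 min after dawn in lhy cca1 (circles) and WS (squares), with 95% intervals and filled symbols for an adjusted p under 0.05. CHLH in WS at 60 min, at 0.74, is the one filled symbol among the 7 genes. PORA has a wider axis than the others.

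The genotype by dawn interaction passed for 0 of the 7 genes at 15, 30 and 60 min. Over all tested probe sets limma called 0 at 15 min and 0 at 30 min, with 634 and 695 at an unadjusted p under 0.05, and 0.0202% at 60 min. In the F test over the 3 times 0.0269% of probe sets passed and none of the 7 did. For CHLH at 30 min the unadjusted p was 0.013.

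Of 55 genes listed for the rest of the tetrapyrrole pathway and its regulators, 12 have a named probe set in the annotation used here and 9 were tested. HEMA3, HEMB2 and HEMF2 were too dim, and magnesium chelatase, the heme branch and the regulators have no further tested gene. In the mean over the 4 times 3 of the 9 were higher in lhy cca1, 0 were lower and 6 did not pass, against 10.9% of all tested probe sets that passed as higher. The median difference of the 9 was 0.12. HEME1 and HEME2, which encode uroporphyrinogen decarboxylases of the common porphyrin steps, were higher by 0.30 ± 0.0677 (limma adjusted p = 0.006) and by 0.22 ± 0.0739 (adjusted p = 0.0489). HEME1 ran from 379.2 to 413.6 in lhy cca1 (median 397.6) and from 269.7 to 387.3 in WS (median 327.3), an overlap of the 2 ranges at their ends.

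NOL, a subunit of the reductase that begins chlorophyll b breakdown, was higher in lhy cca1 by 0.31 ± 0.0775 in the mean (limma adjusted p = 0.0103) and by 0.69 ± 0.155 before dawn (adjusted p = 0.0319). Its signal ran from 120.5 to 177.7 in lhy cca1 and from 96.08 to 149.0 in WS. The genes that did not pass in the mean were HEMB1 (0.12) and AT5G63290, also called HEMN1 (0.09), of the porphyrin steps, HEMA2 (0.02) and GSA1 (-0.15) of 5-aminolevulinic acid synthesis, CHLP (0.15), the geranylgeranyl reductase that makes the chlorophyll side chain, and SGRL (-0.03), a relative of the stay-green proteins. All 3 calls were lost under at least 1 alternative, that of HEME2 under 18. With the GAPDH ratio as a covariate the adjusted p was 0.116 for HEME1, 0.567 for HEME2 and 0.139 for NOL in the mean, and centring on medians left NOL at 0.0533. Without the 4 replicate 2 arrays of lhy cca1 that of HEME1 was 0.0771. The difference of NOL before dawn missed the threshold in 10 of its alternatives.

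In WS at 30 min 1 of these 9 genes passed, where 2.14% of all tested probe sets did, and at 15 and 60 min 0 of the 9 did. AT5G63290, listed here under porphyrin synthesis, had 37.35 and 40.68 in WS at 30 min, against 15.79 and 14.39 in WS before dawn. Both arrays before dawn were below the 40th percentile, so the rise of the group mean is given as a bound, at least 1.92-fold. The fitted change of AT5G63290, which takes the dim signals as they stand, was 1.37 (limma adjusted p = 0.0106). In lhy cca1 it had 29.00 and 30.69 at 30 min, against 20.06 and 14.97 before dawn, again both below the percentile (adjusted p = 0.258). The interaction at 30 min gave an adjusted p of 1, so the change is not shown to differ between the genotypes. Without any 1 of the 4 arrays behind the WS rise the adjusted p was 0.0572 to 0.111. In lhy cca1 0 of the 9 passed at any time after dawn.

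The 7 genes did not share 1 profile over the 8 group means. As a description, with 8 points that share their arrays and scaling, Pearson's r was 0.90 between HEMA1 and PORB and 0.90 between CHLM and PORB. It was 0.85 between HEMA1 and CHLM. These are the 3 genes that were higher in lhy cca1, and a shared genotype difference by itself raises r over these group means. CHLH and CHLI2, subunits of the same enzyme, had an r of 0.71, and CHLH and PORB one of -0.27.

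Among 4878 named probe sets that varied by at least 0.5 on the log2 scale, the closest in profile over the 8 group means were AT4G30940 (r = 0.990), AT3G27770 (0.989) and AT4G10930 (0.978) for PORB, and AT2G20740 (0.979), AT2G39580 (0.978) and AT4G26555 (0.976) for CHLM. For HEMA1 they were AT1G29520 (0.977), AT1G74910 (0.970) and AT1G23460 (0.966), and for CHLI2 AT1G73170 (0.976), AT5G65840 (0.968) and AT5G19300 (0.964). CHLH was closest to AT5G39960 (0.956), SNZ (0.954), an AP2-type transcription factor that delays flowering, and AT3G55580 (0.953). PORC was closest to AT2G17970 (0.950), AT2G01870 (0.942) and AT4G32020 (0.927). PORA had the lowest values, with AT5G44450 (0.911), AT5G59020 (0.898) and AT4G36700 (0.879), over signals that lay below the 40th percentile on 11 of 16 arrays. With 8 points and 4878 candidates such values of r are a ranking and carry no test.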

How the data were processed

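The 7 genes, the pathway and marker lists and several alternatives were chosen with earlier results of these data known. Values are intensity on a linear scale as deposited, computed with MAS5 and GCOS per the submitters' processing notes, with no version given in the sources used here. As read from the deposited values, arrays had been scaled to a common level: with 2% trimmed at each end, array means were all near 100. Array medians were 33.6 to 38.3, and replicates correlated at 0.961 to 0.981. Of 22810 probe sets, 64 controls were left out. The annotation names 1 gene for 13513 of the other 22746 probe sets, several for 503 and none for 8730, and locus identifiers were updated through a TAIR10.1 gene table. The number of arrays limits the precision.

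Intensities were converted to log2 with no offset. Probe sets above the 40th percentile of their array (19.1 to 22.0) on at least 2 arrays were tested. limma 3.58.1 in R 4.3.3 was fitted to the 8 group means, with eBayes and an intensity trend and 8 residual degrees of freedom, and gave 2-sided tests adjusted by Benjamini-Hochberg over all 14878 probe sets in each comparison. The fit was run on simulated data with independent noise and planted genotype differences larger than those called for the 7 genes. That run does not bear on differences of the size called here. Alternatives were another filter, offset, scaling or variance model, the replicate number as a block, the arrays of each time alone, each array left out, the lhy cca1 replicate 2 arrays left out, and the 25S or GAPDH controls as covariates. All 7 genes were named whatever their values, pathway genes by their lists, and the 3 genes most alike in profile by r over group means spanning at least 0.5 (log2). No sequences are shown.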

Additional observations from a re-analysis of the deposited data

How the results depend on the processing

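The count of the 7 genes that passed as higher in lhy cca1 over the 4 times together, 3 as reported, was 1 with the 25S covariate, 1 without the lhy cca1 replicate 2 arrays (PORB in both) and 0 with the GAPDH ratio as a covariate, a setting added after seeing the data. It was 3 to 4 in the fits without 1 array, and HEMA1, CHLM and PORB passed in all 16 of them. It was 4 with quantile normalization, CHLH being the further gene (0.18, adjusted p = 0.0457). At single times, where 0 passed, 1 passed with quantile normalization (CHLH), 1 with the 25S covariate (PORB) and 2 with the arrays of each time alone (HEMA1 and CHLH), and leaving out 1 array gave 0 to 1 (PORB without replicate 2 of lhy cca1 at 60 min, HEMA1 without either WS array at 60 min). In WS after dawn 1 passed as reported and leaving out 1 array gave 1 to 2 (CHLH with PORB, without replicate 1 of WS before dawn). In lhy cca1 after dawn and in the interaction 0 passed under all alternatives run.

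With replicate number as a block 2 passed in limma at single times, HEMA1 before dawn (adjusted p = 0.00629) and at 60 min (0.00887) and CHLH before dawn (0.0456). The other counts of the 7 genes were unchanged by it. Over all 14878 probe sets the block raised the calls from 239 to 410 before dawn and from 505 to 731 at 60 min. Before dawn 249 passed with quantile normalization and 299 with the arrays of each time alone. At 60 min 438 passed with the 25S covariate and 88 with the arrays of that time alone. The labels do not tie replicate numbers across groups. Deviations of same-numbered arrays correlated at -0.02 to 0.27 over 28 pairs of groups, 15 of them above 0.1.

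Over all probe sets 2709 passed in the genotype comparison over the 4 times, against 1182 with the 25S covariate, 872 without the 4 arrays and 733 with the GAPDH ratio; the cause was not tested. A value was counted as reversed only where it passed in at least 1 of the fits compared, a rule set after seeing the data: 0 of 4 values past the threshold changed sign, and 47 of 94 that were not past it did under at least 1 alternative. The precision was limited by 2 arrays per group and, for PORA, by a signal near background.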
